A study of Mus musculus with 12 samples.

Results

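Galk2, Chst3, Pcmtd2, Clasp2, Ak8, Irf2bpl, Map1a and Pxylp1 are 8 of the 14275 genes listed in catalogues of transcript events from BV-2 cells, an immortalised mouse microglial line, and they hold 102 of the 141591 distinct events. They were chosen by name because their catalogues were longer in untreated than in treated cells. The number of events per gene in control against treated libraries therefore chose them, and those differences are given as a description, without a test. The groups of 3 libraries each were untreated control cells, cells given LPS (lipopolysaccharide, from the outer membrane of bacteria, which activates microglia), cells given NMN (nicotinamide mononucleotide, a precursor of NAD), and cells given LPS with NMN (LPS+NMN). All 12 libraries came from total RNA of the same line, and the labels state no dose or time. Since no label names separate cultures for the 3 libraries of a group, a p-value reflects the spread between these samples alone, and that spread may be technical.

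An event is a first exon, a last exon or a splicing event (a skipped exon, a retained intron or an alternative exon end) that the catalogue of a library lists for a gene. A catalogue holds no read count and no expression level, and its depth is unknown. A gene or event that is not listed may still be transcribed. Libraries listed between 50784 and 55787 distinct events in 11911 to 12246 genes. The label gives the cell type as macroglia, whereas 12 of 15 microglial and macrophage markers were listed in all 12 libraries. The others were P2ry12, in control replicates 2 and 3 alone, and C1qa, in all control libraries and NMN replicate 2. Cx3cr1 was in LPS replicates 1 and 3, NMN replicate 2 and LPS+NMN replicate 3, and in no control library. Of 4 endothelial markers, Pecam1 and Cdh5 were in all 12 and Cldn5 was in none. Of 6 astrocyte markers, Slc1a2 was in all 12 and Aqp4, Aldh1l1 and Slc1a3 were in none. Of 6 neuronal markers, Tubb3 and Syn1 were in all 12 and Rbfox3, Syt1 and Snap25 were in none. Of 6 oligodendrocyte markers, Mog and Olig1 were in none and 2 were in all 12, and the summed events of this list ranged from 9 to 13 in control libraries. The ranges were 6 to 7 with LPS, 4 to 8 with NMN and 5 to 6 with both. The part of that difference in the results was not tested.

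Most genes give more than one mature transcript, because transcription can begin at different promoters, exons can be skipped or trimmed during splicing, and the transcript can end at different sites. The 8 genes have varied roles, some of which are related. Galk2 encodes a kinase of N-acetylgalactosamine, Chst3 a sulfotransferase that places sulfate on chondroitin in the Golgi, and Pxylp1 a phosphatase that acts on the xylose of the linker joining chondroitin and heparan chains to proteins. Clasp2 stabilises growing microtubule ends and Map1a binds along microtubules. Ak8 is an adenylate kinase, Pcmtd2 is related to the protein repair enzyme Pcmt1, and Irf2bpl is related to proteins that bind the transcription factor IRF2.

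Exons whose alternative forms were in every control library and in few or no treated libraries are shown first, with the listed boundaries marked. They are coding exons of GENCODE M21 transcripts on GRCm38, on the plus strand, read 5′ to 3′. For Galk2 exon 3 (transcript Galk2-207, chr2:125887843-125887987) the capitals mark the 21 bases between the longer and the shorter listed start. For Galk2 exon 9 (Galk2-201, chr2:125975260-125975461) they mark the 128 bases between the shorter and the longer listed end. For Pcmtd2 exon 6 (Pcmtd2-202, chr2:181851582-181851709) they mark the 4 bases between its listed starts.
Galk2 exon 3: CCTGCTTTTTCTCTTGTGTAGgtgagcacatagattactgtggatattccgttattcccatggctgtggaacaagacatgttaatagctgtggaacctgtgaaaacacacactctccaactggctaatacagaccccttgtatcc
Galk2 exon 9: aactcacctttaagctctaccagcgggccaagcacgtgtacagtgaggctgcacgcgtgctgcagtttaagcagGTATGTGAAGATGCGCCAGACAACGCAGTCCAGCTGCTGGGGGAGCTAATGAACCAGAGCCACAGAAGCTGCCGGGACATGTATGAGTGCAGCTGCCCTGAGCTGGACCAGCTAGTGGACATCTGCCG
Pcmtd2 exon 6: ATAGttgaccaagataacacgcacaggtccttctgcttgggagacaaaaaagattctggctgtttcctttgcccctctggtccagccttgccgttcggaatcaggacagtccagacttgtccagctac
The 21 bases of Galk2 exon 3 are a multiple of 3, and the other stretches, of 128 and 4 bases, are not. The capitals of Galk2 exon 9 begin with GT, the usual first letters of an intron. Those of Galk2 exon 3 and Pcmtd2 exon 6 end with AG, the usual last letters of an intron. These letters describe the sequence and do not show that a site was used.

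The 8 genes together listed 46, 44 and 43 events in the control libraries. They listed 17, 20 and 19 in LPS, 24, 19 and 21 in NMN, and 18, 16 and 18 in LPS+NMN libraries. Every treated library thus listed fewer than every control library, which follows from how the genes were chosen. In each of 7 genes, Clasp2 being the exception, the highest of the 9 treated libraries lay below the lowest control library. Among all genes tested, 46 of 11671 (0.394%) had this pattern. Taken by treatment, LPS libraries lay wholly below control in 7 of the 8 genes and NMN and LPS+NMN libraries in all 8, beside 2.69%, 2.35% and 2.48% of all genes.

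**Figure D1:**
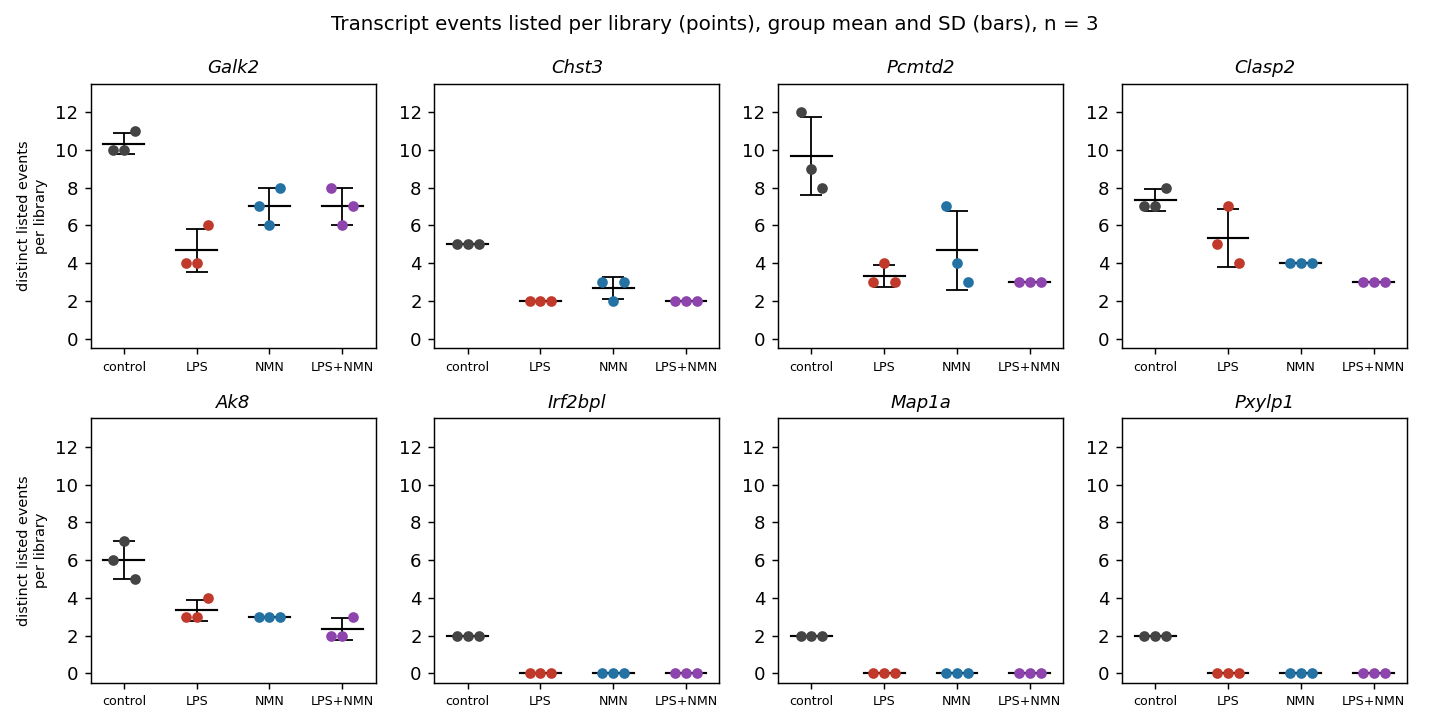
Distinct listed events per library (vertical axis) for each of the 8 genes in the 4 groups (horizontal axis); points are libraries, the long line is the mean and the bar the SD of 3 libraries. Galk2 had 10 to 11 events in control and 4 to 6 in LPS libraries, and Irf2bpl, Map1a and Pxylp1 had 2 in each control and 0 in each treated library.

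Of the 22 events of these genes that all 3 control libraries listed, 14 were in no library given LPS, 7 in none given NMN and 10 in none given both. Among all genes, the shares lost in the same way were 1.96% for LPS, 1.51% for NMN and 1.88% for LPS+NMN. All 9 splicing events of the 22 were lost with LPS, 3 with NMN and 7 with both, beside 3.43%, 2.71% and 3.37% of the splicing events of all genes. These 9 events were alternative ends of Galk2 exons 3 and 9 and of Pcmtd2 exon 6 alone, some in an exact and an approximate form. They are therefore not 9 separate exons. Of the 10 first exons, 4, 3 and 2 were lost, beside 1.39%, 1.06% and 1.31% in all genes. Of 3 last exons, 1 was lost in each treatment, that of Map1a, beside 1.36%, 0.993% and 1.26% in all genes. No treated library listed 6 of the 22, against 0.314% of the events of all genes. These were both ends of Galk2 exon 9, 1 start of Pcmtd2 exon 6, a first exon of Clasp2 and both exons of Map1a. Among all genes, 0.582% of splicing events, 0.191% of first exons and 0.228% of last exons went missing in the same way. In the other direction, 1 of the 10 events in all LPS libraries was in no control library, a Chst3 first exon on the opposite strand. For NMN this was 1 of 10, a Galk2 last exon, and for LPS+NMN 0 of 7. Among all genes the shares were 1.96%, 1.76% and 2.06%.

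**Figure D2:**
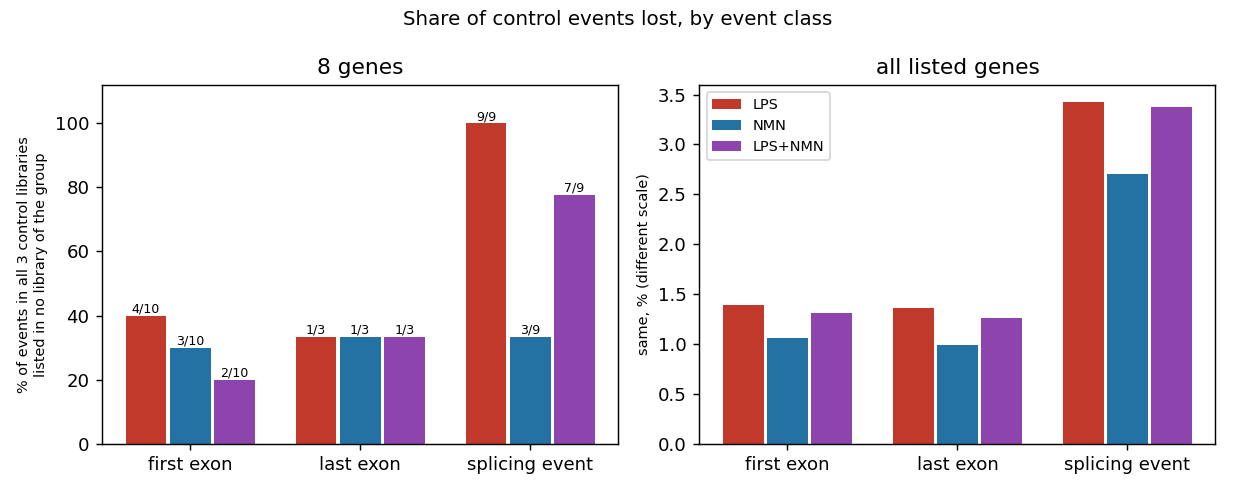
Percentage of events listed in all 3 control libraries that no library of a treated group listed (vertical axes, with different scales), by event class, for the 8 genes (left, with counts) and for all listed genes (right). The 8 genes lost 9 of 9 splicing events in LPS and 3 of 9 in NMN, and splicing events were also the class lost most often among all genes. These 9 events were alternative ends of Galk2 exons 3 and 9 and of Pcmtd2 exon 6 alone.

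Galk2 is annotated at chr2:125859109-125984299 on GRCm38, plus strand. It listed 10, 10 and 11 events in control, 4, 4 and 6 in LPS, 7, 6 and 8 in NMN, and 8, 6 and 7 in LPS+NMN libraries. Its first exons numbered 3, 2 and 4 in control and 3 in every LPS and NMN library. The list was shorter in splicing events, from 6, 7 and 6 in control to 0, 0 and 2 in LPS. NMN libraries listed 3, 2 and 4 splicing events and LPS+NMN libraries 5, 2 and 3, so that neither group overlapped control. Both starts of exon 3 were listed in all control libraries, in no LPS library, in NMN replicate 3 and in LPS+NMN replicates 1 and 3. Both ends of exon 9 were listed in all control libraries and in none of the 9 treated ones. The longer end, which gives an exon of 202 bases, is annotated, and the shorter, of 74 bases, is not.

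The loss of an exon end needs to be read with the form of the catalogue. In all 41970 alternative-end exons over the 12 libraries, at least 2 ends were listed, so an exon with a single assembled end is not in the list at all. The absence of both ends of Galk2 exon 9 therefore does not show that the exon was absent. The gene's last exon also differed: a start 4 bases inside the annotated start of exon 10 was in 2 LPS, 3 NMN and 2 LPS+NMN libraries and in no control library. The annotated start was listed in control replicate 1 alone.

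Pcmtd2, at chr2:181837854-181857461 on the plus strand, listed 12, 9 and 8 events in control, 3, 4 and 3 in LPS, 7, 4 and 3 in NMN and 3, 3 and 3 in LPS+NMN libraries. Here too the splicing events left, from 9, 5 and 5 in control to 0 in every LPS and LPS+NMN library and to 4, 0 and 0 in NMN. All of those shared by the control libraries concerned exon 6. Both of its starts are annotated. The form of 128 bases was in all control libraries and no treated library. The form of 124 bases was listed as an exon end in all control libraries and otherwise in NMN replicate 1 alone. So was one with an unannotated end, extended by 2207 bases into the following intron of 3228 bases. In another role, the start of the 124-base form began a last exon of 5861 bases in LPS+NMN replicate 3. The annotated end of exon 6 closed a first exon of 994 bases in NMN replicate 2. Both main first exons, of 131 to 265 and of 506 bases, were listed in all 12 libraries. Counting exact and approximate forms and all ends of an exon once, an alternative added once the data had been seen, gave 5, 5 and 4 events in control, 3, 4 and 3 in LPS, 4, 4 and 3 in NMN and 3 in each LPS+NMN library. Control then overlapped LPS and NMN. Counted in this way, Galk2 had 7, 6 and 7 events in control, 4, 4 and 5 in LPS, 6, 5 and 7 in NMN and 6, 5 and 6 in LPS+NMN libraries, so that NMN and LPS+NMN overlapped control and LPS did not.

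**Figure D3:**
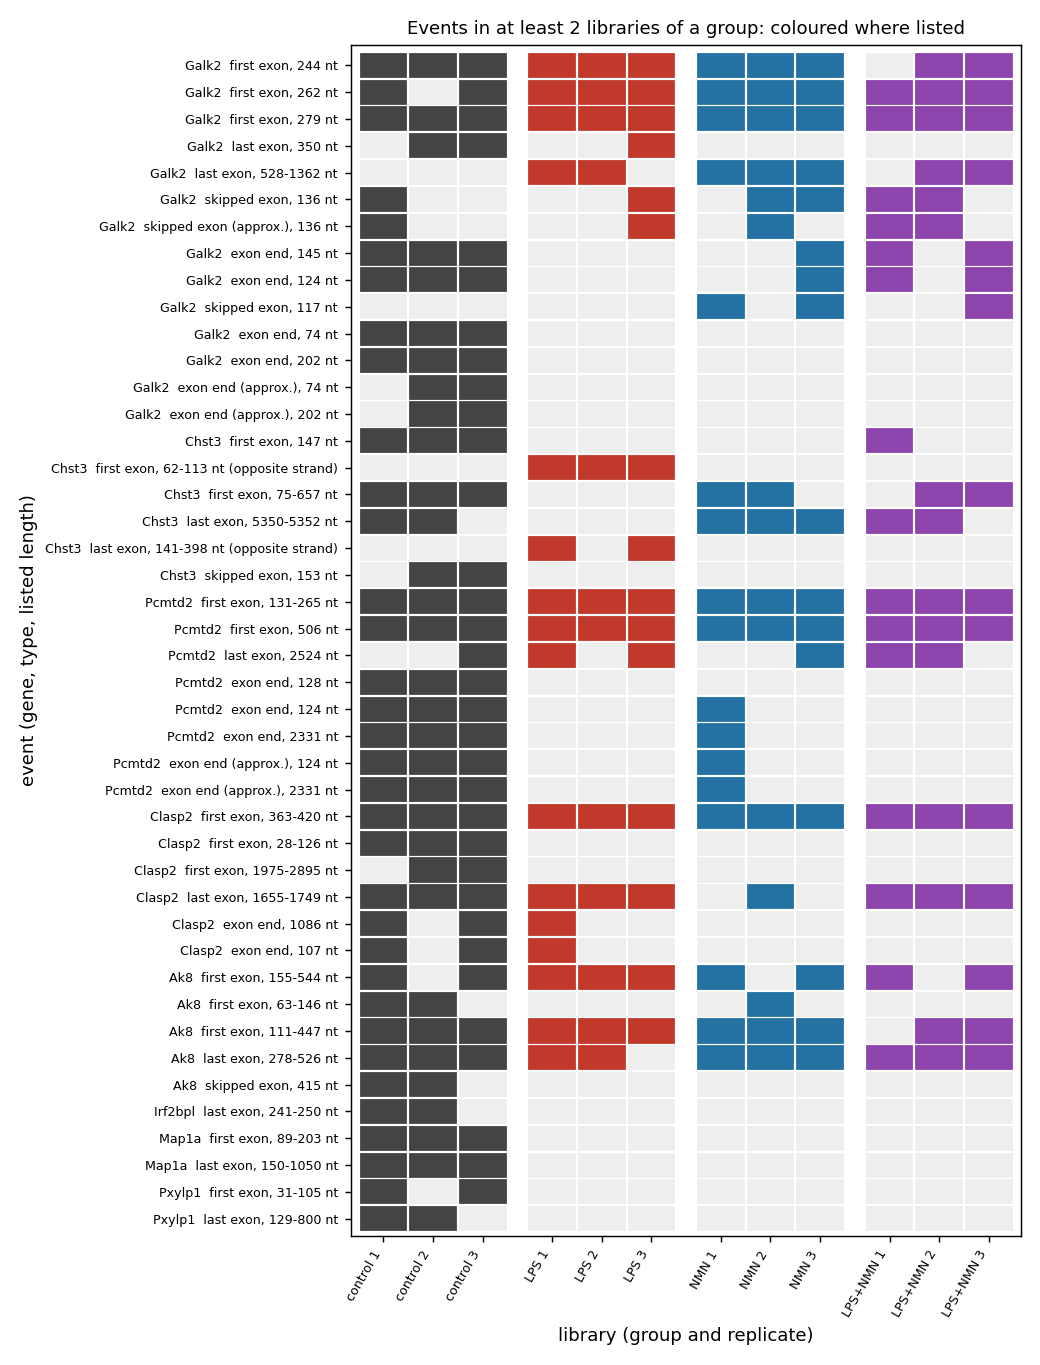
Events of the 8 genes (rows, with listed length in nucleotides) found in at least 2 libraries of some group, by library (columns); a coloured cell means listed, a grey cell not listed. Both ends of Galk2 exon 9 (74 and 202 nt) and both Map1a exons fill the control columns alone, while the Pcmtd2 first exons fill all 12 columns.

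Chst3, at chr10:60181532-60219260 on the minus strand, listed 5 events in each control library, 2 in each LPS library, 3, 2 and 3 in NMN and 2 in each LPS+NMN library. The groups did not overlap with control. The first exon that ends at annotated exon 1 of Chst3-202, in the 5′ untranslated region, was in all control libraries, in no LPS library, in 2 NMN and in 2 LPS+NMN libraries. A second first exon, of 147 bases, ends at the inner edge of exon 2 of Chst3-202, an exon of 153 bases. The same edge is annotated for exon 1 of the coding transcript Chst3-203. This first exon was in all control libraries, in no LPS or NMN library and in LPS+NMN replicate 1. The skipping of exon 2 was listed in control replicates 2 and 3 alone. The main last exon was in 2 control libraries, no LPS library, 3 NMN and 2 LPS+NMN libraries.

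All events that LPS libraries listed for Chst3 lay on the strand opposite to the gene. They were a first exon 9176 bases into intron 1, in all 3 LPS libraries and no other, and last exons 7201 bases (replicates 1 and 3) and 1572 bases (replicate 2) into it. The last of these was also in control replicate 3. On the annotated strand alone, Chst3 had 5, 5 and 4 events in control, 0 in each LPS library, 3, 2 and 3 in NMN and 2 in each LPS+NMN library. Only 7 of 11001 genes (0.0636%) were listed on the annotated strand in all control libraries and on the opposite strand alone in all LPS libraries, among them Alpk2, Dnah6 and Pdcd1lg2. The corresponding numbers were 3 genes (0.0273%) each for NMN and LPS+NMN, without Chst3. No label states whether the libraries kept strand, so an opposite-strand line may be an antisense transcript or a strand call of another kind, which was not tested.

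**Figure D4:**
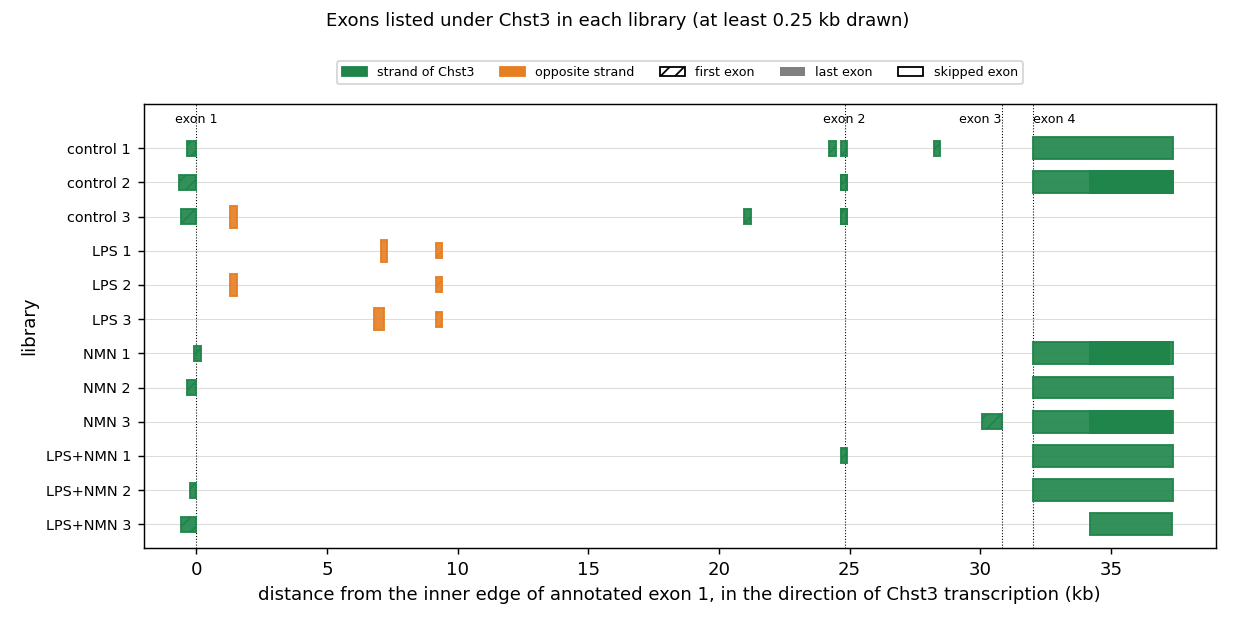
Exons listed under Chst3 in each library (rows) by distance in kb from the inner edge of annotated exon 1 in the direction of transcription; green is the strand of Chst3, orange the opposite strand, hatched boxes are first exons and tall boxes last exons, and dotted lines mark annotated exons. LPS libraries show orange boxes alone, with the first exon 9176 bases from exon 1, and the terminal exon appears in control replicates 1 and 2 and in all NMN and LPS+NMN libraries.

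The 250 bases before the RefSeq start of Chst3 (GRCm38.p6, chr10:60219261-60219510, minus strand, written 5′ to 3′) are shown because the first exon behind them was listed in every control and no LPS library. Capitals mark GGGCGG, searched on both strands.
Chst3 promoter: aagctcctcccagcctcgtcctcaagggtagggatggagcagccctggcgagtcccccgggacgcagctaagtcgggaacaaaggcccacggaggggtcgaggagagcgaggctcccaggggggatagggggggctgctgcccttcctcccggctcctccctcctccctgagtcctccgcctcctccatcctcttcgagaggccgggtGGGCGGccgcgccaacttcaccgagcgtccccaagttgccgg
This stretch had 69.6% G and C, against a median of 52.4% over all RefSeq promoters, and 1 match of GGGCGG. The motif was in 32.7% of the 250-base stretches of 32851 promoters. A match is a description of the letters. RefSeq promoters were found for 7 of the 8 genes, Pcmtd2 being the exception.

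Clasp2, at chr9:113741473-113919682 on the plus strand, listed 7, 7 and 8 events in control, 5, 7 and 4 in LPS, 4 in each NMN library and 3 in each LPS+NMN library. LPS overlapped control through replicate 2, and NMN and LPS+NMN lay below it. An unannotated first exon of 28 to 126 bases in an intron was in all control libraries and no treated one. The same exon, of 125 bases, was listed as a skipped exon in NMN replicate 2 and LPS+NMN replicate 1, so these treated libraries did list it, in another role. The main first exon was in all 12 libraries, and the main last exon in all but NMN replicates 1 and 3. Exon 18 of Clasp2-202 (chr9:113875265-113875327 on GRCm38, plus strand), shown whole in capitals, was listed as skipped in LPS replicate 3 alone. A form reaching from it to the end of a later exon, of 1086 bases, was in control replicates 1 and 3 and LPS replicate 1.
Clasp2 exon 18: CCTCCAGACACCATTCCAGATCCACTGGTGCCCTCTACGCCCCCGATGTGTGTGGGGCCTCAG
Its 63 bases are a multiple of 3.

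Ak8, at chr2:28700164-28813165 on the plus strand, listed 6, 7 and 5 events in control, 3, 3 and 4 in LPS, 3 in each NMN library and 2, 2 and 3 in LPS+NMN libraries. No treated library reached the lowest control value, although with all ends of an exon counted once control had 6, 6 and 4 and LPS 3, 3 and 4 events, which overlap. Yet no event shared by all control libraries was lost in any treatment: both such events, the annotated first exon and the last exon, were in at least 2 libraries of each treated group. The control lists were longer through events of 1 or 2 control libraries. These included a first exon 1550 bases before the annotated start (control replicates 1 and 2 and NMN replicate 2). Another first exon, of 592 bases, ended in an intron (control replicate 1). Skipped exons were of 415 bases (control replicates 1 and 2) and of 262 bases (control replicate 2 and LPS replicate 3). Pairs of exon ends were each in 1 control library. A further first exon, 1198 bases before the annotated start, was in 2 control, 3 LPS, 2 NMN and 2 LPS+NMN libraries.

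Irf2bpl, Map1a and Pxylp1 each listed 2 events, a first and a last exon, in every control library and 0 in all 9 treated libraries. Of 11336 genes, 4 (0.0353%) were in all control and no treated libraries, and Gm2296 was the other one. The reverse pattern, in all treated and no control libraries, was found in 24 of 11027 genes (0.218%). For Irf2bpl and Pxylp1 the listed boundaries differed between control libraries.

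Map1a, at chr2:121289600-121310832, had the same boundaries in all control libraries, the end of exon 6 and the start of exon 7 of Map1a-201, its last 2 exons, with 196 bases between them. The listed first exon was 89, 203 and 89 bases long and is not the annotated first exon. For Pxylp1, at chr9:96823336-96892669 on the minus strand, the pairs joined exon 4 to exon 7 of Pxylp1-202 in control replicate 1, exon 6 to exon 7 in replicate 2, and exon 4 to exon 6 in replicate 3. None is the annotated first exon. Irf2bpl, at chr12:86880701-86884798 on the minus strand, is annotated with 1 exon, and the 2 listed exons lay inside or across it with gaps of 72, 2171 and 45 bases in the 3 control libraries. None of its 5 listed boundaries is an annotated one.

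The limma estimates of the difference from control, on the log2(events + 1) scale, are the values that chose the genes. Against control, LPS gave -1.02 (SE 0.18) for Galk2, -1 (SE 0.14) for Chst3 and -1.29 (SE 0.24) for Pcmtd2. LPS+NMN gave -1.40 (SE 0.24) for Pcmtd2, -1.06 (SE 0.18) for Clasp2 and -1.07 (SE 0.17) for Ak8. For the genes that went from 2 events to 0, each treatment gave -1.58 (SE 0.38). Over all genes, those with fewer events at a Benjamini-Hochberg adjusted p under 0.05 were 5 of 11671 (0.0428%) for LPS, 1 (0.00857%) for NMN and 6 (0.0514%) for LPS+NMN. No call is given for the 8 genes, since these values chose them. The comparisons share the control libraries.

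**Figure D5:**
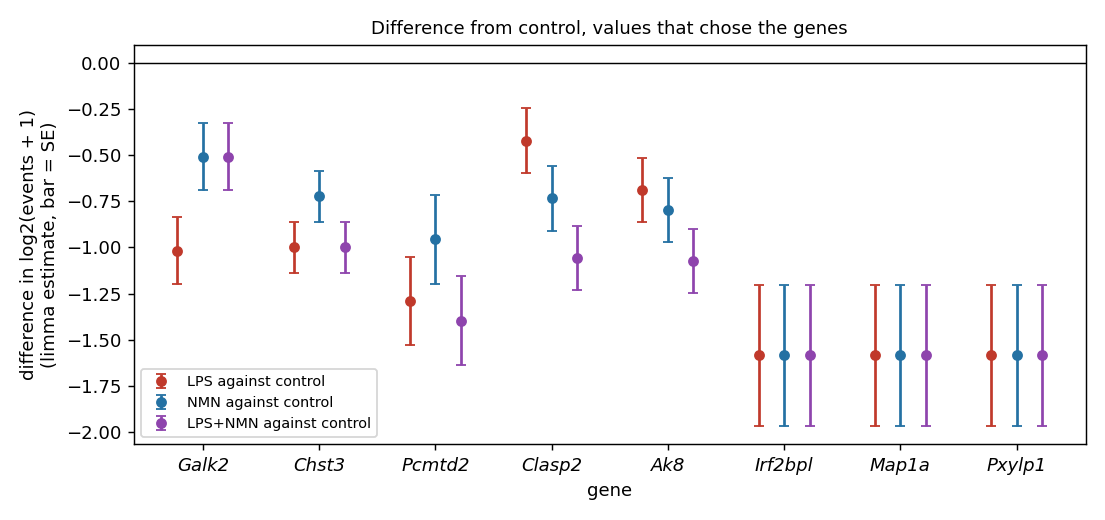
Difference from control in log2(events + 1) by limma (vertical axis, bars are SE) for each gene (horizontal axis) and treatment. All points lie below 0, as the choice of genes sets; Clasp2 and Ak8 were lowest in LPS+NMN, at -1.06 and -1.07, and Galk2 in LPS, at -1.02.

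The treated groups were then compared with each other, which is not the contrast that chose the genes. The choice still bears on it, since it took genes with few events in treated libraries. Irf2bpl, Map1a and Pxylp1 had 0 events in all 9 treated libraries, so their differences were fixed at 0 and no call was possible. None of the 8 genes was called in any of the 3 comparisons. Over all genes limma called 0 of 11671 (0%) in either direction, while an unadjusted p under 0.05 gave 229 lower and 292 higher for LPS+NMN against LPS, 261 and 316 for NMN against LPS, and 282 and 249 for LPS+NMN against NMN. Among the 8, the smallest p was that of Clasp2, 3 events in each LPS+NMN library against 5, 7 and 4 in LPS (-0.64, SE 0.18, limma adjusted p = 0.683). Galk2 had more events with NMN present, by 0.51 (SE 0.18) in NMN against LPS (limma adjusted p = 0.848) and in LPS+NMN against LPS (limma adjusted p = 0.853), and did not pass. For Chst3, with all lines, the difference was 0.28 in NMN against LPS (limma adjusted p = 0.933) and 0 in LPS+NMN against LPS. With annotated-strand lines alone these differences were 1.86 and 1.58. That alternative was added because all Chst3 lines of LPS libraries had been seen on the opposite strand, so the values are a description without a test.

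Related genes and pathway partners were followed in 8 lists. Of these, 0 other members were called in either direction in the comparisons with control by limma. Over all genes, those called with fewer events are given above. Those called with more events were 30 of 11671 (0.257%) for LPS, 26 (0.223%) for NMN and 33 (0.283%) for LPS+NMN. The number at an unadjusted limma p under 0.05, both directions together, was 0 to 4 per list and comparison. The highest was 4 of 22 genes of microtubule plus ends in LPS. In that list and comparison 12 genes were lower, 4 higher and 6 equal. Over all genes, an unadjusted p under 0.05 was found with fewer events in 3.9%, 3.52% and 3.55% and with more events in 3.57%, 3.48% and 3.91%, for LPS, NMN and LPS+NMN in that order. Medians of the lists ranged from -0.14 to 0.20, beside a median of 0 over all genes. In the glycosaminoglycan list 31 other genes were tested, and in LPS 11 were higher, 13 lower and 7 equal. Chst7, a sulfotransferase related to Chst3, had 2 events in every control and LPS library. Galk1, the galactokinase, had 3, 3 and 2 events in control and 3, 2 and 3 in LPS libraries.

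Some relatives had lower or higher values that did not pass, each given here for a single comparison with control. Pcmtd1, the closest relative of Pcmtd2, had 9, 7 and 6 events in control and 5, 6 and 4 in LPS libraries (-0.47, limma adjusted p = 0.689). Clasp1 had 8, 5 and 6 in control and 2, 3 and 4 in NMN libraries (-0.89, limma adjusted p = 0.721). Map1b, related to Map1a, had 2 in each control and 3, 3 and 4 in LPS+NMN libraries (0.52, limma adjusted p = 0.385).

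The genes most like the 8 were sought among 7178 others by the Pearson correlation of log2(events + 1) over the 12 libraries, which share their group structure. Pitpnm1, a phosphatidylinositol transfer protein, came first for the mean of the 8 (r = 0.957), with 10, 11 and 10 events in control and 7 to 8 in treated libraries. Zfp687 (r = 0.942) had 5, 6 and 6 in control and 4 in every treated library. Next came Aldh1l2 (0.899), Cul3 (0.875) and Nek7 (0.873). Among the 8 themselves, Clasp2 and Galk2 were least alike (r = 0.257), and Chst3 and Pcmtd2 the most alike of those still listed after treatment (r = 0.901). These correlations describe the lists, and the choice of genes by the same difference raises them.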

How the data were processed

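RNA sequencing was done on 12 libraries of BV-2 cells, and groups and replicate numbers were taken from sample titles. The authors deposited, per the file headers, 1 list of transcript events for each library (type, gene, chromosome, start, end, pattern and strand), which holds base positions and no count or level. BWA 0.7.12, MACS2 2.1.0, HOMER and the GRCm38 build appear in the submitters' processing notes, without a role. The name of the program that made the lists was not given in the sources used here. Partner lines without the event and 9998 repeated lines were left out. First and last exons were matched by gene, type and pattern, other events by gene, type, start and end.

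Distinct events per gene and library were tested with limma 3.58.1 in R 4.3.3 (trend and robust moderation, 4 group means) on log2(events + 1), for genes with an event in at least 3 libraries and not the same value in all. Benjamini-Hochberg adjustment ran over all genes tested, with a threshold of 0.05, and the script was tested on simulated data. Depth is unknown, so no counting interval was given. The files' positions are not on GRCm38. Exon numbers were therefore assigned by the spacing of boundaries, with 1 shift per gene (for Irf2bpl, the shift of its 4 flanking genes). Matched boundaries were 21 of 29 in Galk2, 6 of 16 in Chst3, 6 of 11 in Pcmtd2, 26 of 34 in Clasp2, 4 of 11 in Ak8, 2 of 2 in Map1a and 4 of 4 in Pxylp1. Gene positions and exon sequences are from GENCODE M21 and promoters from RefSeq.

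The 8 genes, the related-gene lists and the markers were chosen with earlier results of these data known. Named genes were the 8 genes whatever their values, the nearest relatives in each list, and the genes most like the 8, and 1 gene that the rule named is not reported here. Alternatives covered the pseudocount, filters, moderation, event classes, strand, a replicate block and leaving out each library.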

Additional observations from a re-analysis of the deposited data

How the results depend on the processing

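Counts of genes with fewer events than control (5 for LPS, 1 for NMN and 6 for LPS+NMN) moved with the processing, and the causes were not tested. In that order they were 9, 5 and 10 without a filter, 0, 0 and 2 for genes that had 5 or more events in 3 libraries, 9, 5 and 11 without trend and robust moderation, and 0, 0 and 0 with only the compared groups in the fit or with splicing events alone. Leaving out 1 library gave 4 to 12, 1 to 5 and 4 to 8. The LPS count was 12 without LPS replicate 1 and 11 without LPS replicate 3. The NMN count was 5 without control replicate 2, 4 without control replicate 3 or LPS replicate 1, 3 without any 1 of the NMN replicates or LPS+NMN replicate 1, and 2 without control replicate 1. With first and last exons alone the NMN count was 3. Annotated-strand lines alone, added once the data had been seen, gave 3 for LPS. Between treated groups the counts of 0 genes with fewer events became 1 with log2(events + 0.5), with splicing events alone and without LPS replicate 1 for LPS+NMN and NMN against LPS. Without moderation they became 2, 2 and 3 (LPS+NMN against NMN), and leaving out 1 library gave 0 to 1, 0 to 1 and 0 to 0. With annotated-strand lines alone, genes with more events were 1 of 11559 for LPS+NMN against LPS and 1 for NMN against LPS. The count was 0 for LPS+NMN against NMN. The gene was Chst3 both times, and its opposite-strand lines had prompted that alternative, so this is a description without a test.

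Libraries sharing a number did not deviate together (r from -0.027 to 0.022 over 18 pairs, and 4 of 12 libraries correlated best with their own number). With the replicate block, the LPS+NMN count was 3 in place of 6.

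Events lost from the 8 genes (14, 7 and 10) were 24, 18 and 22 when 2 of 3 control libraries sufficed. Leaving out 1 library gave 14 to 19, 8 to 12 and 10 to 15, and NMN had 12 without control replicate 1 and 11 without NMN replicate 1. Both of these changes loosen the rule for a lost event, so the counts could not fall and do not measure robustness. NMN had 4 when first and last exons were matched by start and end.

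Galk2 in LPS came to 0.0196 with first and last exons alone, and Pcmtd2 in LPS came to 0, so their shorter lists rested on splicing events. Depth, which the files do not give, limits every statement that an event was not listed.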
